A study of Mus musculus with 9 samples.

Results

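The lysosomal enzymes and cathepsins are taken here as 40 mouse genes. They comprise 10 cathepsins, 11 glycosidases, 4 sulfatases, 7 proteins of the lysosomal membrane and 8 other soluble proteins. A gene was included when a probe carried its current name or an older synonym in the annotation of the arrays. In all, 75 of the 41174 probes matched, 62 of them passed the filter on dim spots, and each of the 40 genes was among the 18286 genes tested. RNA came from freshly isolated cells of MMTV-Wnt-1 and MMTV-Her2 mouse mammary tumours, both of which use the mouse mammary tumour virus promoter to drive an oncogene in mammary epithelium. Flow sorting had kept the cells that lacked green fluorescence (GFP-). The labels name both models for every array, so the models cannot be separated. On 5 arrays, numbered here as replicates 1 to 5, the tumours carry the treatment label for Fzd8-CRD, a Wnt inhibitor. Fzd8-CRD is the ligand-binding, cysteine-rich domain of the Wnt receptor Frizzled-8. The other 4 arrays are controls (replicates 1 to 4). Strain, age, dose and duration are not given in the sources used here, nor is what the control tumours received: the treatment text names the inhibitor for all 9 arrays. The design text calls the arrays biological replicates.

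Each array measured tumour RNA in the red dye (Cy5) against pooled reference RNA in the green dye (Cy3). Levels are log2 Cy5/Cy3 ratios, and differences are Fzd8-CRD minus control. Because a ratio depends on the reference's own content of a transcript, ratios are not compared between genes. The labels disagree on the reference (a universal mouse reference, a pool of 11 strains or a universal human reference). "Rose" and "fell" are used for an adjusted p under 0.05 in limma, corrected by the Benjamini-Hochberg method over all 18286 genes.

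Lysosomes are acidic organelles in which hydrolases break down proteins, glycans, lipids and nucleic acids delivered by endocytosis and autophagy. Most soluble hydrolases are tagged with mannose 6-phosphate in the Golgi and sorted by receptors, the proton pump V-ATPase acidifies the lumen, and heavily glycosylated membrane proteins line the organelle. Cathepsins are its main proteases and can also be secreted; in tumours they are made both by carcinoma cells and by macrophages, fibroblasts and other stromal cells. The basic helix-loop-helix factors TFEB, TFE3 and MITF bind a palindromic E-box found near the start of many lysosomal genes.

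That palindrome, CACGTG, and its longer form TCACGTGA were searched for in RefSeq promoters (GRCm38.p6, 250 bases before to 50 after each listed start). Both motifs read the same on either strand, and every TCACGTGA contains CACGTG. The table held 36 of the 40 members. Npc1, Ctsh, Ctsb and Asah1 were not matched. CACGTG was present in 13 of the 36 (36.1%), against 2187 of all 27025 genes in the table (8.09%). TCACGTGA was present in 5 of the 36 (13.9%), against 304 of all genes (1.12%). By class, CACGTG was found for 4 of 8 cathepsins, 4 of 11 glycosidases, 2 of 4 sulfatases, 3 of 6 membrane proteins and 0 of 7 other soluble proteins. The windows below show the 5 members with TCACGTGA, and Ctsl, the one member that rose, which has the 6-base form alone. Motif letters are in capitals, each window is 30 bases long, and each reads 5′ to 3′ on the strand of its gene.
Ctsa, chr2:164833749-164833778, plus strand: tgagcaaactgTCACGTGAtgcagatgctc
Ctsa, chr2:164833766-164833795, plus strand: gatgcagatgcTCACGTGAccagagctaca
Ctsd, chr7:142387908-142387937, minus strand: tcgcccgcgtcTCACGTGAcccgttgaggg
Gla, chrX:134601215-134601244, minus strand: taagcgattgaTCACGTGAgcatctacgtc
Gla, chrX:134601182-134601211, minus strand: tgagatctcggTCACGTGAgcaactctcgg
Mcoln1, chr8:3500462-3500491, plus strand: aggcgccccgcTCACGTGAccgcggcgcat
Cln3, chr7:126583340-126583369, minus strand: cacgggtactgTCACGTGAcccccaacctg
Ctsl, chr13:64370739-64370768, minus strand: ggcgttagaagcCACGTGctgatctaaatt
The Ctsa and Cln3 windows lie at a second listed start, 901 and 2581 bases inside the gene. The one listed start of Ctsl lies 252 bases inside its gene, so its window falls just within the annotated gene. The listed starts of Ids, Man2b1 and Ppt1 lie 20749, 539 and 150 bases inside their genes. These genes are counted as lacking CACGTG, although the sequence before the annotated gene was not fully searched. The 5 genes with TCACGTGA differed between the groups by -0.61 (Cln3), -0.36 (Gla), -0.07 (Mcoln1), 0.12 (Ctsd) and 0.53 (Ctsa), and 0 of the 5 passed the test. The 13 members with CACGTG had a median difference of 0.05 with 1 called, and the 23 without it a median of -0.10 with 2 called. A match in such a window is a description of letters, not a binding site.

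Of the 40 members, 1 rose with Fzd8-CRD, the cysteine protease gene Ctsl, and 2 fell, the cysteine protease gene Ctsk and the beta-mannosidase gene Manba. The other 37 did not pass the test. Each gene was represented by its brightest kept probe. Of the 19 members with more than 1 kept probe, 10 had probes whose differences disagreed in sign. Over all genes tested, 14.4% were called (6.61% rose and 7.75% fell), so 3 of 40 is no larger a share than that of genes at large. An unadjusted p under 0.05 in limma was reached by 11 of the 40 members and by 5860 of all 18286 genes, a somewhat larger share. The difference was under 0.5 in absolute size for 29 of the 40 (72.5%), against 70.0% of all genes, and the median was -0.10 for the members and -0.07 for all genes (0.076 and -0.0011 with the scanner's own ratio). The groups did not overlap for 4 members (Ctsl, Ctsk, Manba and Cln3), while they did not overlap for 19.6% of all genes. Without control replicate 2, which stands apart from the other arrays as described further on, 4 members rose (Ctsl, Ctsa, Arsa and Lipa) and 2 fell. With array weights the counts were 9 and 5, and with the slide as a random block 5 and 3. Over all 18286 genes, 1350 rose and 1745 fell without control replicate 2. The counts were 3142 and 3625 with array weights and 2473 and 3033 with the slide block. In none of these settings was the called share of members larger than that of all genes.

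**Figure D1:**
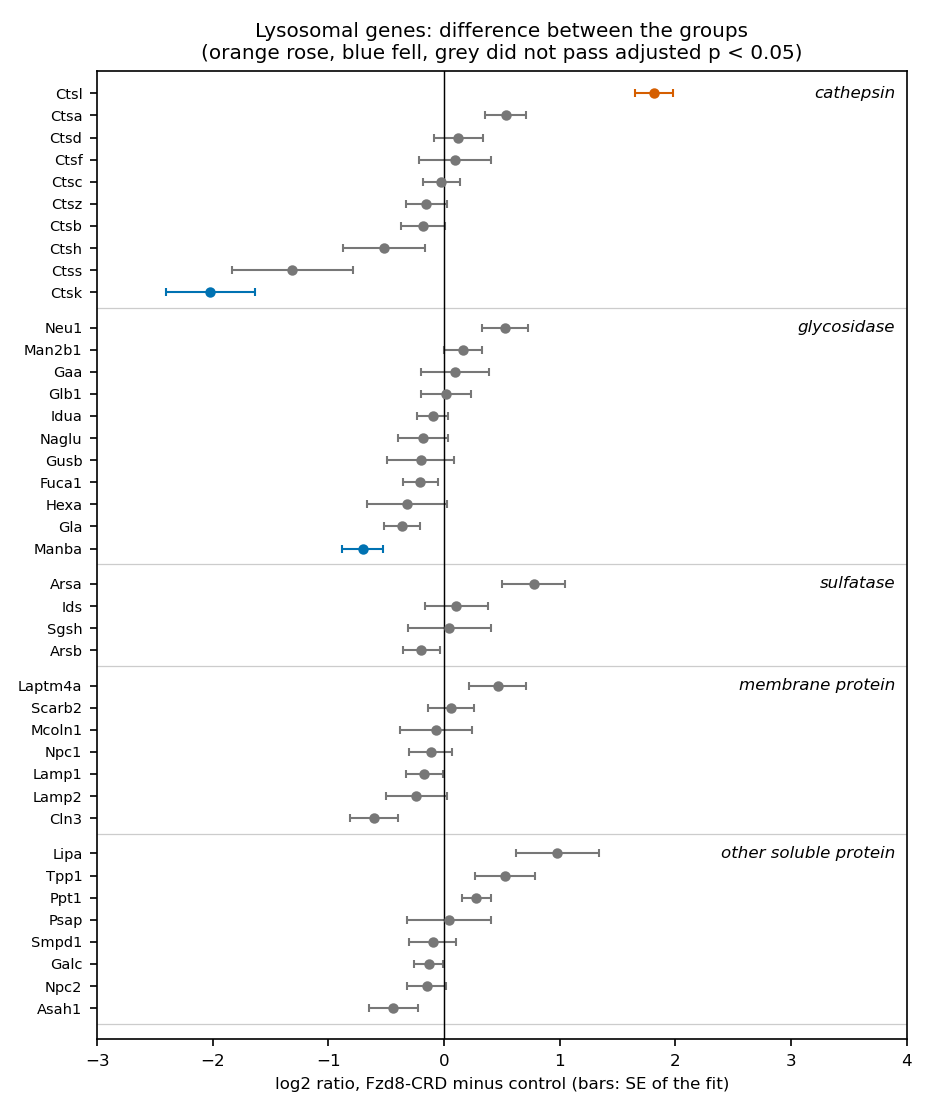
Difference in log2 Cy5/Cy3 ratio, Fzd8-CRD minus control, for the 40 lysosomal genes in their 5 classes, with 1 point per gene and bars for the standard error of the fit (5 Fzd8-CRD and 4 control arrays). Ctsl lies at 1.81 and Ctsk at -2.02, Manba is the one called glycosidase, and most of the grey points, which did not pass the test, lie within 0.5 of 0.

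Ctsl encodes cathepsin L, a broad endopeptidase. Its log2 ratios were -0.73, -0.64, -0.36, -0.12 and -0.13 on Fzd8-CRD arrays 1 to 5, and -2.29, -2.36, -2.20 and -1.99 on control arrays 1 to 4. All 5 treated arrays lay above all 4 controls, and the gap between the groups was wider than the range within either one. The means were -0.40 ± 0.28 (SD, n = 5) and -2.21 ± 0.16 (SD, n = 4). The difference was 1.81 (SE 0.16; adjusted p = 0.00118 in limma), a 3.52-fold rise and the 16th highest difference of the 18286 genes. The tumour dye alone gave a difference of 1.62 (adjusted p = 0.00111 in limma). The reference dye alone gave -0.29 (adjusted p = 0.00156), so the reference moved the opposite way and by far less. Leaving out each array in turn gave 1.74 to 1.90, and Ctsl was called in all 9 of these fits. It was not called when the arrays were centred on their medians in place of loess (1.72, adjusted p = 0.0599), a setting that called few genes in all (309 rose and 304 fell). One probe measured Ctsl.

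Ctsk encodes cathepsin K, the collagen-degrading protease best known from osteoclasts and also made by activated fibroblasts. Its log2 ratios were 0.63, 0.04, 0.06, -0.08 and 0.12 on Fzd8-CRD arrays 1 to 5, and 1.04, 3.32, 2.41 and 1.94 on control arrays 1 to 4. The treated arrays lay close together apart from replicate 1, while the controls ranged over more than 2 log2 units; the groups did not overlap. The difference was -2.02 (SE 0.39; adjusted p = 0.0118 in limma), the 82nd lowest of the 18286 genes. It was -1.60 in the tumour dye (adjusted p = 0.0149 in limma) and -0.06 in the reference dye. The single probe was well above background on 4 of the 5 treated and all 4 control arrays. It was dim in both dyes, with log2 Cy5 at 6.67 to 7.45 on the treated arrays and log2 Cy3 at 6.81 to 7.07 on all 9. The closeness of the treated ratios is thus that of dim signals. Leaving out each array in turn gave -2.40 to -1.64, called in 9 of 9 fits; the smallest, -1.64 (adjusted p = 0.0108), came without control replicate 2. The call was lost when the 2 closest arrays of each group were averaged (-2.07, adjusted p = 0.0628), and Ctsk was not tested when all 9 arrays had to be well above background.

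Markers of other cells were set beside Ctsk on the same arrays. The median of 14 fibroblast markers, relative to each gene's mean over the arrays, was -1.22, 1.07, 0.92 and 0.48 on control arrays 1 to 4 and between -0.74 and 0.34 on the treated arrays. Control replicate 1, the lowest in fibroblast markers, was also the control with the lowest Ctsk ratio. Its fibroblast median (-1.22) lay below every treated array, while its Ctsk ratio (1.04) lay above every treated array (at most 0.63). Of the 14 fibroblast markers 2 fell and the others did not pass the test. The median difference of the 14 was -0.94, against -0.07 for all genes. Col1a1, a collagen chain of fibroblasts, differed by -1.72 (adjusted p = 0.190 in limma). Among 7 osteoclast markers tested, Acp5, the tartrate-resistant acid phosphatase, fell by 0.92 on the log2 scale (adjusted p = 0.0172), but the tumour dye alone gave -0.36 (adjusted p = 0.263), with 0.18 in the reference dye. Itgb3, the integrin beta 3 chain, rose by 1.55 (adjusted p = 0.00259) and by 2.10 in the tumour dye. In these bulk samples fewer cells of a type and less RNA per cell cannot be told apart, and the part of these markers in the Ctsk result was not tested.

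Ctss encodes cathepsin S, an antigen-processing protease of macrophages and other myeloid cells. Its log2 ratios were -2.06, -3.95, -3.91, -2.60 and -3.40 on Fzd8-CRD arrays 1 to 5, and -2.70, -0.48, -2.03 and -2.29 on control arrays 1 to 4. The groups overlapped, and control replicate 2 was by far the highest array. The difference was -1.31 (SE 0.52; adjusted p = 0.117 in limma), and -0.85 (adjusted p = 0.209) without that replicate. Of 22 macrophage markers tested, 1 fell (Mrc1, by 0.70, or -0.44 and not called in the tumour dye, named after its value was seen) and the others did not pass the test. Their median stood at 1.25 on control replicate 2, at -0.06 to 0.04 on the other controls and at -0.45 to 0.16 on the treated arrays. The macrophage genes Cd68, Csf1r, Adgre1 and Lyz2 were well above background on all 9 arrays and differed by -0.59, -0.37, -0.87 and -1.33, with adjusted p from 0.0809 to 0.406 in limma.

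Ctsa, the serine carboxypeptidase that also protects beta-galactosidase and neuraminidase, differed by 0.53 (SE 0.18; adjusted p = 0.0728 in limma). Its log2 ratios were -0.92, -0.84, -1.46, -1.13 and -1.12 on the treated arrays and -1.88, -1.20, -1.63 and -1.80 on the controls. The groups overlapped only through treated replicate 3 and control replicate 2. The other 2 Ctsa probes gave 0.37 and 0.76, and the one at 0.76 passed in a fit over all kept probes (adjusted p = 0.01 in limma). Without control replicate 2 the difference was 0.68 (adjusted p = 0.0209). With scale normalization between arrays it was -0.12.

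The remaining 6 cathepsins differed by -0.52 to 0.12, and none passed the test. These were Ctsh (-0.52, adjusted p = 0.338 in limma), an aminopeptidase; Ctsb (-0.18, 0.531), which has both endo- and exopeptidase activity; and Ctsz (-0.15, 0.568), a carboxypeptidase. Ctsc (-0.02, 0.936) encodes the dipeptidyl peptidase that activates granule proteases of immune cells, Ctsf (0.09, 0.859) another cysteine protease, and Ctsd (0.12, 0.711) the main aspartic protease. A second Ctsd probe gave -0.50. Control replicate 2 was the highest of the 9 arrays for Ctsf, at 4.13 against 2.52 to 2.78 on the other controls.

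**Figure D2:**
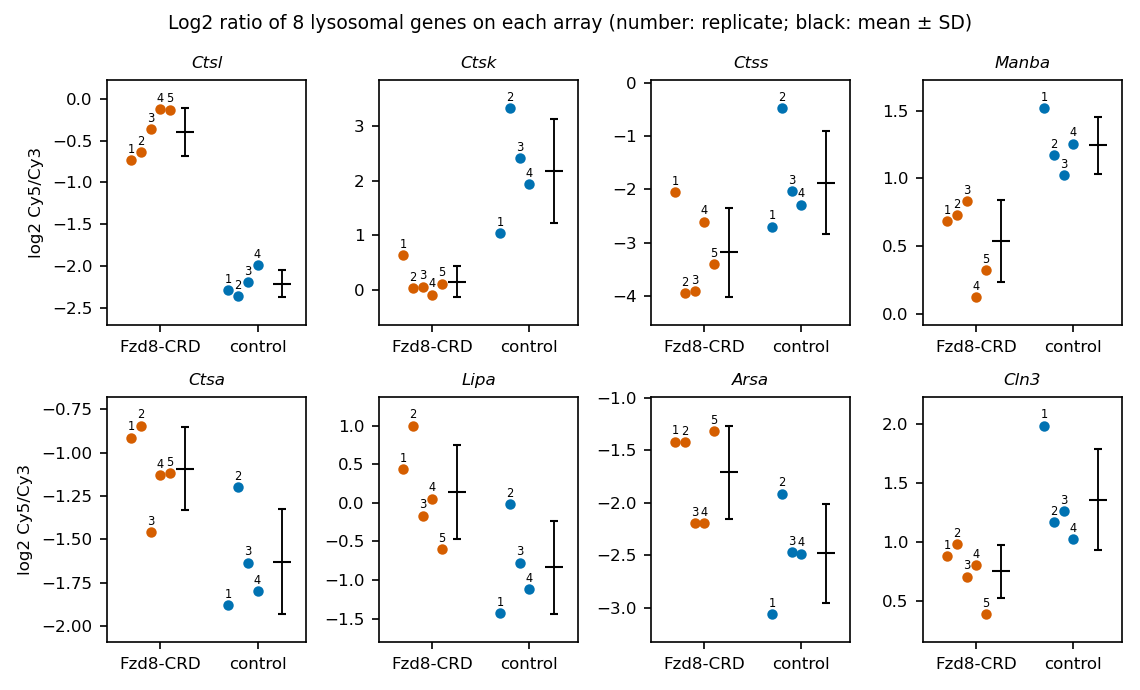
Log2 Cy5/Cy3 ratio of 8 lysosomal genes on each array, Fzd8-CRD in orange and control in blue, with the replicate number above each point and the mean ± SD in black. The groups are apart for Ctsl, Ctsk, Manba and Cln3, and control replicate 2 is the highest control for Ctsk, Ctss, Ctsa, Lipa and Arsa.

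Manba encodes beta-mannosidase, which removes the last mannose in the breakdown of N-linked glycans. Its log2 ratios were 0.69, 0.73, 0.83, 0.13 and 0.32 on Fzd8-CRD arrays 1 to 5, and 1.52, 1.17, 1.03 and 1.26 on control arrays 1 to 4. Every control lay above every treated array, with treated replicates 4 and 5 the lowest. The means were 0.54 ± 0.30 (SD, n = 5) and 1.24 ± 0.21 (SD, n = 4), and the gene fell by 0.70 on the log2 scale (SE 0.18; adjusted p = 0.0286 in limma). A second probe gave -0.78. The call depended on single arrays: leaving out each in turn gave -0.78 to -0.60, called in 4 of 9 fits. It was lost without treated replicate 1, 4 or 5 and without control replicate 1 or 4, with adjusted p up to 0.0662. It was also lost with the scanner's own ratio (-0.57), median centring (-0.59) and scale normalization (-0.33). The tumour dye alone gave -0.64 (adjusted p = 0.0560 in limma) and the reference dye -0.06.

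Neu1, the neuraminidase that removes sialic acids, differed by 0.53 (SE 0.20; adjusted p = 0.102 in limma). It read -0.22, -0.19, -0.22, -0.75 and -0.30 on the treated arrays and -0.29, -1.06, -1.14 and -0.97 on the controls. The groups overlapped through control replicate 1, and treated replicate 4 stood apart from the other treated arrays. Without control replicate 1 the difference was 0.72 (adjusted p = 0.0217), but a second Neu1 probe gave -0.15.

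The other 9 glycosidases differed by -0.36 to 0.16, and none passed the test. Gla, the alpha-galactosidase lacking in Fabry disease, gave -0.36 (adjusted p = 0.149 in limma), although its second probe gave 0.29. Hexa, the alpha chain of beta-hexosaminidase, gave -0.32 (0.535), and Fuca1, the alpha-fucosidase, -0.21 (0.365). Gusb, the beta-glucuronidase, gave -0.20 (0.654), and Naglu, which degrades heparan sulfate, -0.18 (0.585). Idua, the alpha-iduronidase, gave -0.10 (0.627), Glb1, the beta-galactosidase, 0.02 (0.965), Gaa, the acid alpha-glucosidase that degrades glycogen, 0.09 (0.848), and Man2b1, the alpha-mannosidase, 0.16 (0.517). Man2b1 and Manba, which act on the same glycans, thus had differences of opposite sign; the difference between the genes was not tested. Control replicate 2 was the highest array for Hexa (-0.60), Gusb (-1.39) and Naglu (-0.66).

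None of the 4 sulfatases passed the test in limma, and 1 had an unadjusted p under 0.05. Arsa, which removes sulfate from sulfatides, read -1.42, -1.42, -2.20, -2.19 and -1.32 on the treated arrays and -3.06, -1.91, -2.47 and -2.48 on the controls. The groups overlapped through control replicate 2. The ratio differed by 0.77 (SE 0.28; adjusted p = 0.0882 in limma), and by 0.96 (adjusted p = 0.0401) without that replicate. Taken alone, the tumour dye differed by -0.02 and the reference dye by -0.88, so the ratio difference lay in the reference. Arsb, which acts on dermatan sulfate, differed by -0.20 (SE 0.16; adjusted p = 0.411 in limma), with values of 0.44, 0.51, 0.51, 0.19 and 0.45 on the treated arrays and 0.20, 0.52, 0.92 and 0.82 on the controls. The Arsb values overlapped, with control replicates 3 and 4 the highest. A second Arsb probe, well above background on 2 treated arrays, gave 0.25. Ids and Sgsh, sulfatases of heparan sulfate breakdown, differed by 0.11 and 0.05. In both, control replicate 1 was low: -1.60 for Ids against -0.47 to -0.29 on the other controls, and -1.09 for Sgsh against 0.01 to 0.04.

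None of the 7 membrane proteins passed the test in limma, and 1 had an unadjusted p under 0.05. Cln3, the transmembrane protein altered in juvenile Batten disease, read 0.88, 0.98, 0.71, 0.80 and 0.39 on the treated arrays and 1.98, 1.17, 1.26 and 1.02 on the controls. The groups did not overlap, but the nearest arrays, treated replicate 2 and control replicate 4, were only 0.98 and 1.02. The difference was -0.61 (SE 0.21; adjusted p = 0.0799 in limma), a second probe gave -0.57, and the tumour dye alone gave -0.30. Laptm4a, a small transmembrane protein of late endosomes and lysosomes, differed by 0.47 (SE 0.25; adjusted p = 0.223), and its second probe by -0.53. It read 1.34, 1.42, 0.69, 0.74 and 1.06 on the treated arrays and -0.07, 0.55, 0.82 and 1.03 on the controls, where replicate 1 was lowest. Lamp1 and Lamp2, the most abundant glycoproteins of the membrane, differed by -0.17 and -0.24. Npc1, which exports cholesterol, differed by -0.12, and Scarb2, the receptor that carries glucocerebrosidase to the lysosome, by 0.06. Mcoln1, the lysosomal calcium channel, differed by -0.07, with 0.65 at its second probe.

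None of the 8 other soluble proteins passed the test in limma, and 2 had an unadjusted p under 0.05. Lipa, the acid lipase that frees cholesterol from its esters, read 0.43, 1.00, -0.17, 0.05 and -0.60 on the treated arrays and -1.43, -0.02, -0.78 and -1.12 on the controls. Control replicate 2 lay among the treated arrays. The difference was 0.98 (SE 0.36; adjusted p = 0.0960 in limma), with 0.65 in the tumour dye and -0.40 in the reference dye, and 1.25 (adjusted p = 0.0368) without control replicate 2. Ppt1, a palmitoyl-protein thioesterase, differed by 0.28 (SE 0.12; adjusted p = 0.151), with treated arrays at -0.72, -0.60, -0.94, -0.88 and -0.68 and controls at -1.15, -0.81, -1.14 and -1.06. The Ppt1 groups overlapped through control replicate 2. Its other 2 probes gave -0.26 and 0.21.

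Tpp1, a tripeptidyl peptidase, differed by 0.53 (adjusted p = 0.196 in limma) in the ratio but by 0.09 in the tumour dye, with -0.49 in the reference. A second Tpp1 probe gave a ratio difference of 0.63, which passed in a fit over all kept probes (adjusted p = 0.0402 in limma). Asah1, the acid ceramidase, differed by -0.44 in the ratio (adjusted p = 0.184) and by -0.95 in the tumour dye (adjusted p = 0.0115 in limma), with -0.56 in the reference. Npc2, the partner of Npc1 in cholesterol export, differed by -0.15, Galc, a galactosylceramidase, by -0.13, Smpd1, the acid sphingomyelinase, by -0.10, and Psap, the precursor of the saposin activators, by 0.04. A second Psap probe gave -0.21. Galc was well above background on 3 of the 5 treated arrays.

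The classes differed in how widely their members were spread more than in where their middle lay. Cathepsin differences ran from -2.02 to 1.81, with 5 of 10 under 0.5 in absolute size and a median of -0.09. Glycosidases ran from -0.70 to 0.53, with 9 of 11 under 0.5 and a median of -0.18, and membrane proteins from -0.61 to 0.47, with 6 of 7 under 0.5 and a median of -0.12. The medians of the sulfatases and of the other soluble proteins were 0.08 and -0.03. The array medians of each class, relative to each gene's mean, overlapped between the groups: -0.09 to 0.10 on treated and -0.27 to 0.49 on control arrays for cathepsins, -0.20 to 0.15 and -0.15 to 0.60 for glycosidases, and -0.15 to 0.14 and -0.18 to 0.19 for membrane proteins. The upper ends of the first 2 control ranges, 0.49 and 0.60, are control replicate 2. These are descriptions of chosen genes, and no difference between the classes was tested.

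**Figure D3:**
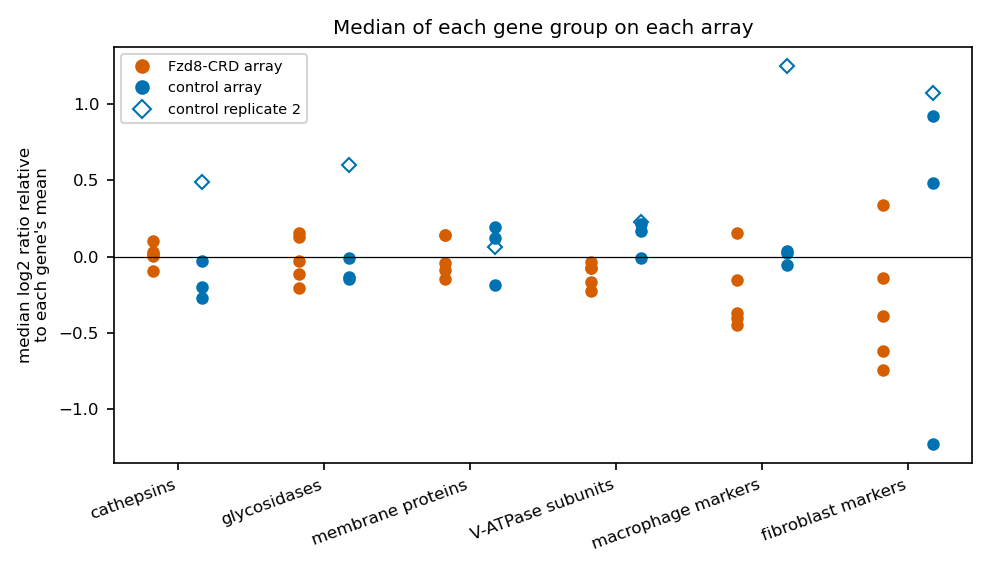
Median log2 ratio, relative to each gene's mean over the 9 arrays, of 3 classes of lysosomal genes, of V-ATPase subunits and of macrophage and fibroblast markers, with 1 point per array. Control replicate 2 (open diamond) stands above the other arrays for cathepsins (0.49), glycosidases (0.60) and macrophage markers (1.25), and not for membrane proteins (0.07).

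Each dye was also normalized and tested by itself. In the tumour dye 4 members passed (Ctsl and Glb1 higher, Ctsk and Asah1 lower), with 18.8% of all genes called. In the reference dye 19 members passed, with 59.1% of all genes called, so the reference signal itself differed between the groups for most genes. For Ctsl, Ctsk, Ctss and Manba the difference lay mainly in the tumour dye. For Arsa and Tpp1 it lay mainly in the reference dye. For Glb1 the tumour dye (0.60) and the reference dye (0.45) differed the same way, beside a ratio difference of 0.02. Each dye was tested at 1 probe per gene, so the second Tpp1 probe is not covered.

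**Figure D4:**
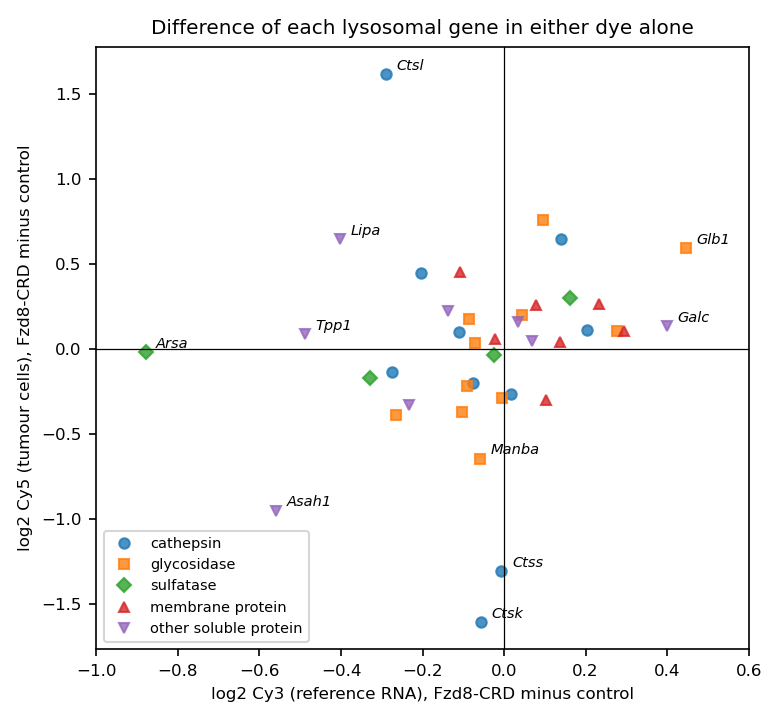
Difference between the groups (log2, Fzd8-CRD minus control) of each of the 40 lysosomal genes in the tumour dye (Cy5, vertical axis) against the reference dye (Cy3, horizontal axis), each dye normalized alone, with the class shown by the marker. Ctsk and Ctss lie far below 0 on the vertical axis and near 0 on the horizontal one, Ctsl lies at 1.62 and -0.29, and Arsa at -0.02 and -0.88.

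Over all 18286 genes, control replicate 2 correlated with the other arrays of both groups at 0.618 to 0.737. The other controls correlated with one another at 0.899 to 0.979. Over the 40 members these ranges were 0.802 to 0.949 and 0.939 to 0.988, which overlapped slightly. It was the highest of the 9 arrays for 18 of the 40 members, and control replicate 1 was the lowest control for 22. The median SD of a member was 0.28 in the Fzd8-CRD group and 0.37 in the controls, or 0.26 without control replicate 2. The 4 controls were on a shared slide read on a single day. The Fzd8-CRD arrays were on 4 other slides read 367 to 378 days later, so slide and treatment cannot be told apart. Tumour-dye spots well above background made up 52.6% to 60.1% of probes on treated and 63.9% to 70.9% on control arrays. Among marker lists, 15 of 16 endothelial genes fell (median -1.77; Pecam1 by 1.23, adjusted p = 0.00306 in limma). Of 4 erythrocyte genes 3 fell (median -3.65), with array medians of -1.95 to -0.82 on treated and 0.68 to 5.12 on control arrays. The highest, 5.12, was control replicate 2. The epithelial genes Epcam (log2 ratio 3.38 treated, 3.64 control) and Krt8 (3.00 and 3.66) were far above the reference in both groups, and their list of 17 epithelial genes held 1 that rose and 3 that fell. Krt5 rose by 0.80 (0.05 in the tumour dye), and Cldn4, Ehf and Esrp1 fell by 1.30, 1.42 and 1.58 (-2.04, -1.20 and -0.70 in the tumour dye). The list's array medians did not overlap, at -0.86 to 0.05 on treated and 0.16 to 0.46 on control arrays. Of 16 lymphocyte genes the one called, Cd8b1, rose by 1.00 (adjusted p = 0.00963 in limma; 0.50 in the tumour dye, not called), while the T-cell gene Cd3e differed by -1.04 (adjusted p = 0.151). The called genes of the epithelial and lymphocyte lists were named after their values were seen. The part of these cell types, of control replicate 2 and of the slides in the members' values was not tested.

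The other genes of the lysosomal pathway were taken as 7 lists, with 149 genes tested. Of these 8 rose and 8 fell (10.7% called, against 14.4% of all genes), and their median difference was -0.06. The V-ATPase list held the most that fell: of 21 subunits 1 rose and 5 fell, with a median of -0.28. The proton-conducting c subunit Atp6v0c fell by 0.76 (adjusted p = 0.0345 in limma), the membrane subunit Atp6v0e by 0.65 (0.0114), and the peripheral subunits Atp6v1e1 by 0.88 (0.0122), Atp6v1b2 by 0.57 (0.0179) and Atp6v1c1 by 1.04 (0.0434), all on the log2 scale. In the tumour dye alone Atp6v1e1 (-1.29) and Atp6v0e (-0.74) were also called, whereas Atp6v1c1 (-0.78), Atp6v0c (-0.30) and Atp6v1b2 (-0.26) were not. The reference dye differed by 0.33 for Atp6v0c and 0.21 for Atp6v1b2. Atp6v0c and Atp6v1c1 were added to the named subunits after their values were seen, so that each of the 5 is given. The catalytic subunit Atp6v1a rose by 0.73 (adjusted p = 0.0215 in limma), but by 0.04 in the tumour dye alone with -0.78 in the reference dye. The list's array medians were -0.22 to -0.03 on the treated and -0.01 to 0.23 on the control arrays, which did not overlap.

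Of 8 genes for cystatins and stefins, which inhibit cysteine cathepsins, and for related proteins, 1 was called. This was Fetub, the gene of one of the related proteins, which rose by 0.74 (adjusted p = 0.0362 in limma), with 0.02 in the tumour dye. The secreted inhibitor Cst3 and the cytosolic inhibitor Cstb differed by -0.06 and -0.41, neither past the test. Of 15 genes of mannose 6-phosphate sorting and enzyme maturation, Gnptab, which encodes the phosphotransferase that starts the tag, rose by 0.51 (adjusted p = 0.0378) and was again the one gene called; the tumour dye alone gave 0.20 (adjusted p = 0.271). The sorting receptors Igf2r and M6pr differed by 0.64 (adjusted p = 0.0818 in limma) and -0.04. In the tumour dye alone Igf2r differed by 1.13 (adjusted p = 0.0282 in limma), with 0.33 in the reference dye. Cst3, Cstb, Igf2r and M6pr are given as the best known genes of their lists, and were chosen after their values were seen.

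Of 18 MiT/TFE regulators and lysosomal mTORC1 components, Rraga, a Rag GTPase that recruits mTORC1, rose by 0.65 (adjusted p = 0.0348 in limma), and no other gene of the list was called. The factors themselves, named here for the promoter motif, differed by -0.02 (Tfeb), 0.01 (Tfe3) and 0.56 (Mitf, adjusted p = 0.154). Of 31 further hydrolases and activators Scpep1, a serine carboxypeptidase, rose by 0.67 (adjusted p = 0.0496) and Acp5 fell. Of 30 further membrane proteins Sidt2, a nucleic acid transporter, rose by 0.65 (adjusted p = 0.0383) and Lamp3, a LAMP-family glycoprotein, fell by 0.66 (adjusted p = 0.0252), with -0.13 in the tumour dye. Of 26 autophagy genes Vmp1 rose by 1.05 (adjusted p = 0.0440 in limma) and Ulk2, an initiating kinase, by 0.76 (0.0185), while Becn1, a subunit of the lipid kinase complex of autophagosome formation, fell by 0.86 (0.0476). In the tumour dye alone Vmp1 (1.23) was called, and Ulk2 (0.44) and Becn1 (-0.60) were not.

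**Figure D5:**
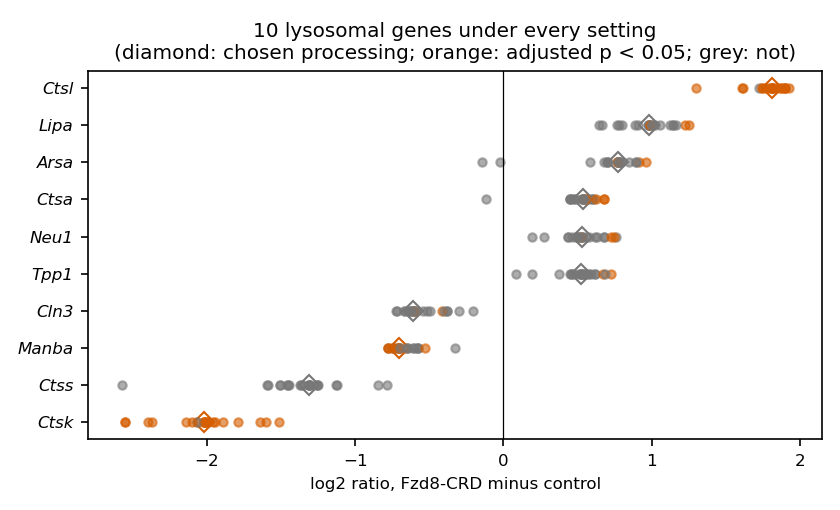
Difference in log2 ratio, Fzd8-CRD minus control, of 10 lysosomal genes under the chosen processing (diamond) and each alternative (points), orange where adjusted p was under 0.05 in limma and grey where it was not. Ctsl stays above 1 and Ctsk below -1 in every setting that tested them, Arsa and Ctsa cross 0, and Manba stays below 0 while its call comes and goes.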

How the data were processed

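The 9 arrays are 2-colour Agilent arrays; per the file headers, the authors' scanner output was made with Feature Extraction 9.5.3.1. The deposited spot values are linear intensities in each dye, with a log10 ratio, and the authors' deposited series table holds linear ratios of Cy5 to Cy3, whose log2 matches the scanner's ratio on every array. The number of arrays limits the precision. Background was corrected with normexp (offset 50), arrays were loess-normalized with control spots at weight 0, and outlier-flagged spots were dropped. The 26852 probes were kept whose Cy5 spot passed the scanner's background test on 4 or more arrays. The 4 controls alone could thus admit a probe. The brightest probe stood for a gene, and limma 3.58.1 (R 4.3.3) tested Fzd8-CRD against control. Alternatives covered background, normalization, dye, filter, probe choice, weights, slides and each array. Replicate numbers follow no label and pair nothing, and p-values measure the spread between these arrays. The members, the gene lists and the naming rule (members called, at least 2 per class in full; the called genes with the smallest p per list; a few preset markers) were chosen with earlier results of these data known. The 3 probes of Ctsa carry its older name, Ppgb, on the control arrays.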

Additional observations from a re-analysis of the deposited data

Results flagged for a closer look

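In 8 of the 80 groups tested (40 genes in 2 groups of arrays), 1 array lay apart from the others of its group by Dixon's gap ratio, the gap to the nearest array over the whole range; chance alone marks about 1 in 20 groups. In the Fzd8-CRD group, Ctsd stood at 0.09 on replicate 5 against 0.50 to 0.60 (gap ratio 0.809), and Ctsk at 0.63 on replicate 1 against -0.08 to 0.12 (0.721). Gaa stood at -0.77 on replicate 3 against 0.03 to 0.30 (0.751). Replicate 4 was the low one for both Neu1, at -0.75 against -0.30 to -0.19 (0.802), and Arsb, at 0.19 against 0.44 to 0.51 (0.772). In the controls, Ctsf stood at 4.13 on replicate 2 against 2.52 to 2.78 (0.841). Replicate 1 was low for both heparan sulfatases: Ids at -1.60 against -0.47 to -0.29 (0.864) and Sgsh at -1.09 against 0.01 to 0.04 (0.978).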

How the results depend on the processing

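Each result was recomputed under 23 alternatives, 9 of which left out 1 array. Of 918 values for single lysosomal genes 791 kept their direction and side of the threshold, 13 lost the call, 26 gained it, 0 reversed a call, and 88 changed sign without being called. Members that rose numbered 1, and 0 with median centring, 2 with Cy5 alone or the mean of a gene's probes, 5 with the slide as a random block, 9 with array weights, and 1 to 4 when single arrays were left out. Members that fell numbered 2, and 1 with the scanner's ratio, the series table, median centring or the filter on all arrays, 5 with array weights, 0 with the closest arrays averaged, and 1 to 2 when single arrays were left out. The pathway lists (8 rose, 8 fell) gave 0 and 0 with median centring or the closest arrays averaged, 25 and 28 with array weights, and 14 and 19 with the slide block, whose estimated correlation was -0.17. Those that rose were 3 with scale normalization, 5 with the filter on all arrays and 4 with probe means; those that fell were 4 with the scanner's ratio and 3 with the series table; leaving out arrays gave 2 to 8 and 3 to 8. The median of all members was 0.076 with the scanner's ratio or the series table and 0.075 with Cy5 alone, and that of the membrane proteins 0.16 with scale normalization, 0.10 with Cy5 alone and -0.31 with array weights. Leaving out arrays gave medians of -0.20 to 0.03 (all members), -0.16 to 0.02 (cathepsins), -0.26 to 0.03 (glycosidases), -0.21 to 0.22 (sulfatases), -0.23 to -0.04 (membrane proteins) and -0.16 to 0.12 (other soluble proteins). Over all genes, 1208 rose and 1418 fell; the scanner's ratio gave 1553 and 1219, the deposited ratios 1534 and 1153, median centring 309 and 304, scale normalization 764 and 836, Cy5 alone 1843 and 1594, array weights 3142 and 3625, the slide block 2473 and 3033, and the closest arrays averaged 125 and 213. Without control replicate 3 the counts were 625 and 716, without treated replicate 1 660 and 852. Aquantile leaves ratios as they are and changed nothing. The cause of each change was not tested, except that averaging arrays leaves fewer samples. No paired analysis was possible because the labels give the arrays no replicate numbers.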
